A study of Tupaia belangeri chinensis with 36 samples.

Results

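The outer subventricular zone (OSVZ) of the fetal cortex of the Chinese tree shrew (Tupaia belangeri chinensis) was compared between embryonic days 28 and 42 (E28 and E42). The comparison rests on the 4 libraries labelled OSVZ at these stages, 2 from E28 and 2 from E42, of 36 libraries in the series. The labels give fetal cortex, the layer and the age, and they give no treatment, genotype or strain. Each library was made from polyadenylated RNA of a layer cut by laser from Nissl-stained frozen sections, so the layer is defined by its position and staining and holds every cell type found there. The whole change of the layer was measured over 26858 features, and the account of named features turns on noncoding features, because these carry gene symbols in their names and the coding features do not.

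The OSVZ is a germinal layer that lies between the inner subventricular zone (ISVZ) and the intermediate zone (IZ) and is large in primates and other species with a folded or expanded cortex. Its outer radial glia divide away from the ventricle and produce neurons, often through intermediate progenitors, and later the same layer yields precursors of astrocytes and oligodendrocytes. Interneurons born in the ventral forebrain also migrate through it. Long intergenic noncoding RNAs and antisense RNAs in the developing brain are often restricted to a cell type, but a noncoding RNA is not the gene after which it is named.

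The annotation holds features of 3 main classes. TSDBGID features have a numeric identifier that no table used here pairs with a gene symbol. A feature named LINC-SYMBOL-n is an intergenic transcript named after a gene, and SYMBOL-AS-n is a transcript antisense to the gene. The strand setting of the counting is not given in the sources used here, so reads of an antisense feature cannot be told from those of its partner gene. Because coding genes could not be looked up by symbol, the identity of the layer could not be checked against its defining marker genes. Fewer cells of a type and less RNA per cell cannot be told apart in such tissue, and neither can stage and the fetuses collected at that stage. With 2 libraries a stage, the p-values rest on a spread between replicates estimated over the 35 libraries of all 18 groups fitted, not over the OSVZ libraries alone. The labels do not state that replicates came from separate fetuses, so that spread may be technical. An OSVZ of the intermediate stage, E37, was not analysed here.

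Counts on features were 38457348 and 34955524 in replicates 1 and 2 of E28 and 25143369 and 37619553 in those of E42. TSDBGID features took between 97.88% and 98.44% of them. LINC features held 0.852% and 0.886% of the counts at E28 and 0.796% and 0.745% at E42. Antisense features held 0.700% and 0.902% at E28 and 1.32% and 1.13% at E42, so both E42 libraries lay above both E28 libraries. A mitochondrial feature, MT-ND1-AS-1, was part of that difference, and without it the antisense share was 0.683% and 0.877% at E28 and 1.02% and 0.969% at E42. Thinned to the smallest of the 4 totals, the libraries held counts on 5405 and 6813 antisense features at E28 and on 6982 and 7832 at E42. The replicates of a stage differed well beyond counting error, by a chi-square of 51.1 for each degree of freedom at E28 and 67.2 at E42.

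The OSVZ changed broadly from E28 to E42. More features rose than fell, by a margin that depended on single libraries and settings. With edgeR's quasi-likelihood test and Benjamini-Hochberg adjustment over all features, from which every adjusted p given here comes, 2972 of 26858 features passed the threshold of 0.05, which is 11.1% of those tested. Of these, 1896 rose (7.06% of the features tested) and 1076 fell (4.01%). Rises were also larger, with a median log2 fold change of 2.15 among features that rose and −0.89 among those that fell. A log2 fold change beyond 5 was found for 240 features that rose and 35 that fell. Rises made up 63.8% of the calls here, 61.9% with DESeq2's size factors, 53.7% when library sizes were taken without the 20 features of highest count, and 52.2% with the libraries thinned to 1 total. Without replicate 2 of E28 they made up 50.3% of the calls and without replicate 1 of E42 54.1%, against 70.5% without replicate 1 of E28 and 60.5% without replicate 2 of E42. Leaving out replicate 1 of E28 left 1619 calls and leaving out replicate 2 of E28 left 1836.

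The classes differed in how often they passed the test and in the size of what passed. Among TSDBGID features 1667 of 15911 rose (10.5%) and 1013 fell (6.37%), with median log2 fold changes of 2.02 and −0.87. Among LINC features 107 of 3922 rose (2.73%) and 37 fell (0.943%), with medians of 4.15 and −3.71. Among antisense features 121 of 6914 rose (1.75%) and 26 fell (0.376%), with medians of 3.45 and −3.33. The noncoding features were mostly far less abundant. Among features with a mean of at least 1 CPM (counts scaled to the library size with TMM factors) over the 4 libraries the test called 21.9% of TSDBGID, 17.3% of LINC and 8.54% of antisense features. The median level of the called features was 27.0 CPM for TSDBGID, 1.28 for LINC and 1.29 for antisense features. The fold changes of the classes were not compared at equal abundance. Of the features that rose, 115 had 0 counts in both E28 libraries, and these were 56 TSDBGID, 30 LINC and 28 antisense features and 1 of no class. Of those that fell, 18 had 0 counts in both E42 libraries.

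**Figure D1:**
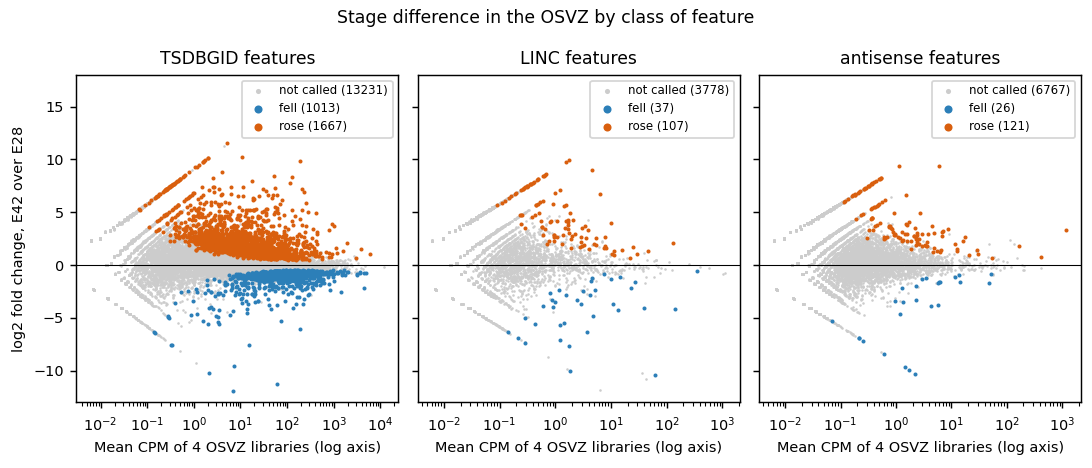
Each point is 1 tested feature, placed by its mean CPM over the 4 OSVZ libraries (log axis) and by its log2 fold change from E28 to E42, with 1 panel for each class. Orange points rose and blue points fell at an adjusted p under 0.05, and grey points were not called. The called LINC and antisense features, 107 and 121 that rose and 37 and 26 that fell, lie mostly farther from 0 than the called TSDBGID features. The classes are not matched for abundance.

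The TSDBGID features with the largest changes went from or to nearly 0. They were taken from called features whose stages did not overlap. TSDBGID.6049 had 0 and 0.0289 CPM at E28 and 23.0 and 20.7 CPM at E42, a ratio of pooled CPM of 1.53e+03 with a 95% counting interval of 274 to 6.04e+04. TSDBGID.22283 had 0 counts in both E28 libraries and 12.9 and 8.04 CPM at E42, at least 235-fold higher when E28 is set at 3 counts over its libraries. In the other direction, TSDBGID.17859 had 92.4 and 151 CPM at E28 and 0.0387 and 0.0498 at E42. TSDBGID.11025 had 11.8 and 16.0 CPM at E28 and 0 counts in both E42 libraries, at least 305-fold lower. The adjusted p of the 4 features lay between 1.20e-07 and 0.000126, and each kept its call when any 1 OSVZ library was left out. Such intervals and floors cover counting error only.

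Among the noncoding features that passed the test, the most abundant ones are the best counted, and they are given here although they were chosen after their values were seen. Only features whose stages did not overlap could be chosen, so their separation by stage is no further result. LINC-GLUL-1, named after the gene of glutamine synthetase, a glial enzyme, had 49.5 and 49.7 CPM at E28 and 224 and 206 CPM at E42, a log2 fold change of 2.11 (SE 0.20, adjusted p = 1.74e-08). LINC-REPS1-3 moved the other way, from 266 and 274 CPM to 16.4 and 13.6 CPM, a log2 fold change of −4.17 (SE 0.30, adjusted p = 1.16e-10). For both features the replicates of a stage lay close together and the stages far apart, and the calls held without any 1 library, with adjusted p of at most 1.55e-05 and 1.26e-07. HIKESHI-AS-1 rose from 56.8 and 93.3 CPM to 327 and 195 CPM, with an adjusted p of 0.00163 and of at most 0.0486 with 1 library left out. MT-ND1-AS-1, antisense to the mitochondrial gene of a subunit of respiratory complex I, had 181 and 249 CPM at E28 and 2913 and 1461 CPM at E42, with a log2 fold change of 3.34 (SE 0.90, adjusted p = 0.0209). Its E42 replicates lay far apart, and it was not called without replicate 1 of E28, replicate 2 of E28 or replicate 1 of E42 (adjusted p = 0.176, 0.111 and 0.121).

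Smaller changes of abundant features lay nearer the threshold. TMBIM6-AS-2 rose from 333 and 280 CPM to 550 and 494 CPM, with an adjusted p of 0.00368, and lost its call without replicate 2 of E28 (0.161) or replicate 1 of E42 (0.11). REPIN1-AS-1 rose from 43.1 and 43.2 CPM to 70.7 and 64.0 CPM, with an adjusted p of 0.0119. LINC-DYNLL2-1 fell from 395 and 453 CPM to 277 and 285 CPM, with an adjusted p of 0.0369. LINC-DYNLL2-1 lost its call whichever library was left out (adjusted p 0.071 to 0.148). REPIN1-AS-1 kept its call only without replicate 2 of E42, where its adjusted p was 0.0456, and without the other 3 libraries it lay between 0.0862 and 0.201. DLG2-AS-16, antisense to the gene of a postsynaptic scaffold protein, fell from 59.4 and 86.0 CPM to 10.4 and 33.5 CPM (adjusted p = 0.0342), and was called only without replicate 2 of E42 (0.0038) when 1 library was left out.

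The lineage lists were read through noncoding features named after their genes. For each list the counts stand beside those over all 10836 LINC and antisense features tested, of which 228 (2.1%) rose and 63 (0.581%) fell, with a median log2 fold change of 0.32. In either direction 291 of them passed (2.69%). A feature that passed the filter on low counts because it was high at a single stage had to differ, so the counts and medians describe the members that were tested and no more. Every called member of the lineage lists is named, a choice made after the values were seen, as it was for LINC-CDH5-2 and LINC-PLXNA4-3, and some features belong to more than 1 list.

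Features named after genes of intermediate progenitors, the transit-amplifying cells of the subventricular zone, had a lower summed level at E42. Of 74 such features 16 were tested, of which 0 rose and 2 fell. The summed level over the list was 30.7 and 29.6 CPM at E28 and 6.07 and 8.83 CPM at E42, so the stages did not overlap, although the median log2 fold change of the tested members was 0.29. Most of that sum at E28 was LINC-SSTR2-2, named after a somatostatin receptor gene, which had 21.3 and 18.6 CPM at E28 and 0.851 and 2.27 CPM at E42, a log2 fold change of −3.66 (SE 0.85, adjusted p = 0.00616). At E28 its mean level was highest in the OSVZ, at 19.9 CPM, against 9.59 in the IZ, 7.46 in the cortical plate, 4.52 in the ISVZ, 3.64 in the marginal zone (MZ) and 0.572 in the ventricular zone (VZ). At E42 it was highest in the inner cortical plate, at 8.05 CPM. NEUROG1-AS-1, antisense to a proneural transcription factor gene, had 3.91 and 4.51 CPM at E28 and 0.503 and 0.373 CPM at E42, a log2 fold change of −3.27 (SE 0.88, adjusted p = 0.0162). It followed another order of layers, with a mean at E28 of 29.4 CPM in the VZ, 13.2 in the ISVZ, 4.21 in the OSVZ and 1.61 in the IZ. LINC-SSTR2-2 lost its call without replicate 1 of E42 (adjusted p = 0.0896), and NEUROG1-AS-1 was called only without replicate 1 of E28 (0.0465) when 1 library was left out and otherwise reached 0.132.

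Features named after radial glia and outer radial glia genes had a higher summed level at E42. Of 132 such features 39 were tested, of which 4 rose and 0 fell, with a median log2 fold change of 1.80. The summed level was 13.3 and 7.70 CPM at E28 and 43.5 and 53.5 CPM at E42. ITGB5-AS-3, antisense to the gene of integrin beta 5, had 0 and 0.0289 CPM at E28 and 10.8 and 13.0 CPM at E42, a ratio of 859 with a lower counting bound of 154 (adjusted p = 4.78e-06). LINC-PTPRZ1-1, named after a receptor phosphatase gene used as an outer radial glia marker, had 0.358 and 0.232 CPM at E28 and 3.09 and 3.21 CPM at E42, a log2 fold change of 3.40 (SE 0.76, adjusted p = 0.0028). In both features the E42 replicates lay close together. TNC-AS-2, antisense to the tenascin C gene, rose from 0.248 and 0.116 CPM to 1.62 and 4.03 CPM (adjusted p = 0.0324). SLC1A3-AS-1, antisense to the gene of a glial glutamate transporter, rose from 0.165 and 0.0579 CPM to 1.01 and 1.97 CPM (adjusted p = 0.0108).

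These 4 features did not share 1 order of layers at E42. ITGB5-AS-3 had a mean of 30.2 CPM in the VZ, 11.9 in the OSVZ, 8.83 in the ISVZ and 8.51 in the MZ, and TNC-AS-2 had 18.8 in the VZ, 9.24 in the MZ and 2.83 in the OSVZ. LINC-PTPRZ1-1 was highest in the MZ, at 4.06 CPM, with 3.15 in the OSVZ and 1.99 in the VZ. The E42 means of the VZ rest on 1 library, because its replicate 2 holds the same counts as replicate 2 of the VZ at E28 and was left out. ITGB5-AS-3 kept its call without any 1 OSVZ library (adjusted p of at most 0.00082). LINC-PTPRZ1-1 lost it without replicate 2 of E28 (0.0627), SLC1A3-AS-1 without replicate 2 of E28 (0.146) or of E42 (0.0854), and TNC-AS-2 without replicate 1 of E28 (0.143), replicate 2 of E28 (0.222) or replicate 2 of E42 (0.178).

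Of 33 tested features named after cell cycle genes, 1 rose and 0 fell. That feature was CCNB2-AS-2, antisense to a mitotic cyclin gene, with 1.76 and 1.51 CPM at E28 and 5.14 and 6.02 CPM at E42 (log2 fold change 1.77, SE 0.47, adjusted p = 0.0109). The summed level of the list was 17.5 and 16.9 CPM at E28 and 17.3 and 18.6 CPM at E42, so the stages overlapped. CCNB2-AS-2 was called without replicate 1 of E42 (adjusted p = 0.0411) and lost its call without each other library (0.0687 to 0.124).

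Features named after oligodendrocyte lineage genes had a higher summed level at E42. Of 138 such features 22 were tested, of which 6 rose and 1 fell, with a median log2 fold change of 4.50. That median covers only the tested members, some of which were counted at E42 only, and 95 of the 138 were at 0 in all 4 libraries. The summed level was 4.65 and 4.20 CPM at E28 and 27.0 and 19.6 CPM at E42. LINC-SOX10-1, named after the transcription factor that defines the lineage from its precursors on, held 16.2 of the 27.0 CPM in replicate 1 of E42 and 8.86 of the 19.6 CPM in replicate 2. It had 0.11 and 0.116 CPM at E28, which were 4 counts in each library, and 16.2 and 8.86 CPM at E42, which were 420 and 356 counts. Its log2 fold change was 6.75 (SE 0.89, adjusted p = 6.24e-06), and the call held without any 1 library, with adjusted p of at most 0.0011.

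The other features of this list that rose were rare. SOX10-AS-1 had 0 counts in both E28 libraries and 11 and 43 counts at E42, at least 19.3-fold higher (adjusted p = 0.026). NKX2-2-AS-1, antisense to a homeobox gene of oligodendrocyte precursors, had 0 counts at E28 and 15 and 34 counts at E42, at least 17.5-fold higher (adjusted p = 0.00585). LUZP2-AS-2 had 0 counts at E28 and 17 and 8 counts at E42, at least 8.94-fold higher (adjusted p = 0.0249). All 3 were thus counted at E42 only. OLIG2-AS-1, antisense to a transcription factor gene of the lineage, rose from 0.11 and 0.318 CPM to 3.48 and 2.46 CPM (log2 fold change 3.78, SE 1.18, adjusted p = 0.0376). BCAS1-AS-1, antisense to a gene of early myelinating oligodendrocytes, had 0 and 1 count at E28 and 21 and 55 counts at E42, a ratio of 81.6 with a counting interval of 14.2 to 3.26e+03 (adjusted p = 0.024). OLIG2-AS-1 lost its call whichever library was left out (adjusted p 0.0693 to 0.281), and SOX10-AS-1, NKX2-2-AS-1, LUZP2-AS-2 and BCAS1-AS-1 each lost it without replicate 1 of E28 (0.172, 0.07, 0.166 and 0.21) and without replicate 2 of E28 (0.149, 0.0635, 0.143 and 0.0858). Of these, SOX10-AS-1 and BCAS1-AS-1 also lost it without replicate 2 of E42 (0.0956 and 0.0836) and LUZP2-AS-2 without replicate 1 of E42 (0.138).

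The feature of this list that fell was LINC-OPCML-1, named after the gene of a neural adhesion molecule and also held by the list of synaptic adhesion. It had 2.97 and 2.63 CPM at E28 and 0.116 and 0.622 CPM at E42 (log2 fold change −2.86, SE 0.94, adjusted p = 0.0458). Its call was lost without replicate 1 of E28 (adjusted p = 0.143), replicate 2 of E28 (0.0858) or replicate 1 of E42 (0.283).

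Of 31 tested features of the astrocyte lineage list, 2 rose and 0 fell, with a median log2 fold change of 0.89. SOX9-AS-1, antisense to a transcription factor gene of radial glia and astrocytes, had 1.73 and 0.955 CPM at E28 and 11.4 and 12.7 CPM at E42, a log2 fold change of 3.16 (SE 0.58, adjusted p = 0.000333). Its stages lay far apart, and the call held without any 1 library, with adjusted p of at most 0.0231. LINC-NDRG2-1, named after an astrocyte gene, had 0 counts in both E28 libraries and 5 and 37 counts at E42, at least 15-fold higher (adjusted p = 0.0235), and was called only without replicate 1 of E42 (0.0262) when 1 library was left out and otherwise lay between 0.145 and 0.165. The summed level of the list was 15.2 and 18.3 CPM at E28 and 31.2 and 30.8 CPM at E42.

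**Figure D2:**
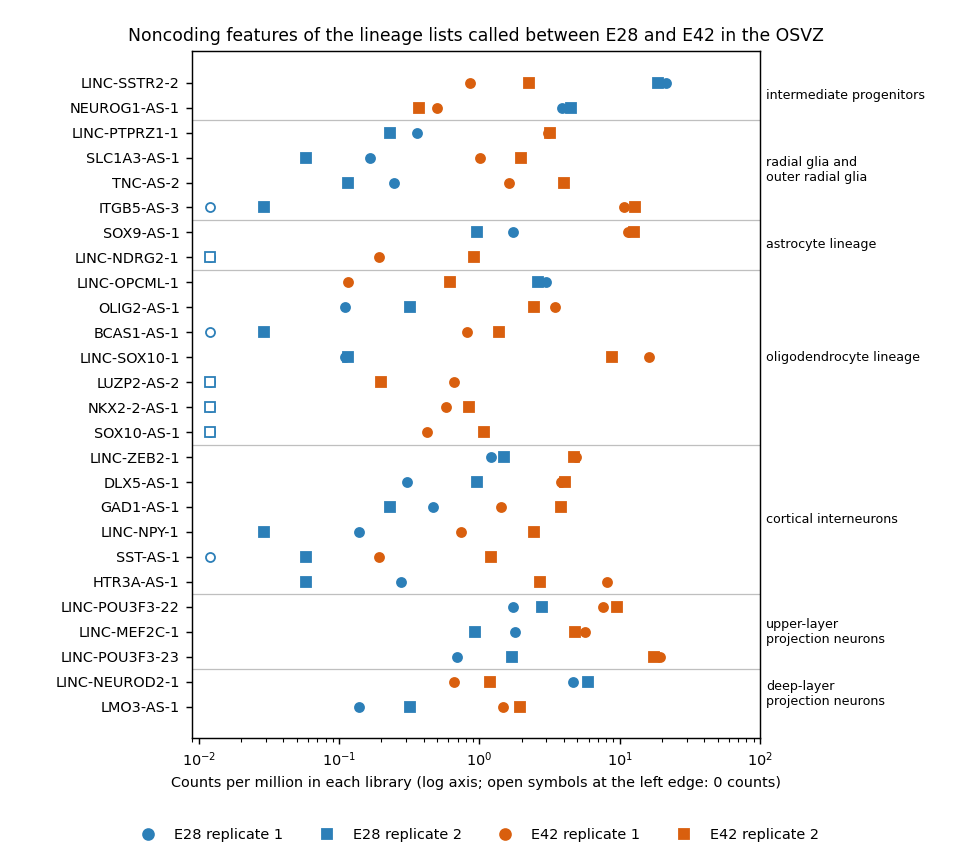
CPM of each called feature of 7 lineage lists in the 4 OSVZ libraries, on a log axis, with blue symbols for E28, orange symbols for E42, circles for replicate 1, squares for replicate 2 and open symbols at the left edge for 0 counts, where a square can cover a circle. The rows were selected by their calls, so the separation of the stages in them is no further result. The E42 symbols lie to the right except for LINC-SSTR2-2, NEUROG1-AS-1, LINC-OPCML-1 and LINC-NEUROD2-1.

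Features named after interneuron genes also had a higher summed level at E42. Of 185 such features 43 were tested, of which 6 rose and 0 fell, with a median log2 fold change of 2.24. The summed level was 14.6 and 14.4 CPM at E28 and 39.1 and 49.4 CPM at E42. DLX5-AS-1, antisense to a homeobox gene of ventral forebrain progenitors and young interneurons, had 0.303 and 0.955 CPM at E28 and 3.83 and 4.06 CPM at E42 (log2 fold change 2.65, SE 0.68, adjusted p = 0.00928). GAD1-AS-1, antisense to the gene of a GABA-synthesizing enzyme, had 0.468 and 0.232 CPM at E28 and 1.43 and 3.83 CPM at E42 (log2 fold change 2.90, SE 0.72, adjusted p = 0.00718). GAD1-AS-1 varied more between the E42 replicates than DLX5-AS-1 did.

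HTR3A-AS-1, antisense to the gene of a serotonin receptor subunit found in interneurons of the caudal ganglionic eminence, rose from 0.275 and 0.0579 CPM to 8.08 and 2.71 CPM (adjusted p = 0.00323). LINC-ZEB2-1, named after a transcription factor gene that interneurons need for their migration, rose from 1.21 and 1.51 CPM to 4.91 and 4.75 CPM (adjusted p = 0.00903). LINC-NPY-1 rose from 0.138 and 0.0289 CPM to 0.734 and 2.44 CPM (adjusted p = 0.0233), and SST-AS-1 had 0 and 2 counts at E28 and 5 and 49 counts at E42, a ratio of 29 with a counting interval of 7.64 to 245 (adjusted p = 0.0157). Both are named after neuropeptide genes of interneurons, and the rise of both was carried mainly by replicate 2 of E42. Without that library LINC-NPY-1 had an adjusted p of 0.204 and SST-AS-1 of 0.361. Each of the other 4 features lost its call without at least 1 library, with adjusted p of 0.176 for DLX5-AS-1 and 0.112 for LINC-ZEB2-1 without replicate 1 of E28, 0.0567 for LINC-ZEB2-1, 0.123 for GAD1-AS-1 and 0.0723 for HTR3A-AS-1 without replicate 2 of E28, and 0.155 for GAD1-AS-1 without replicate 2 of E42. LINC-NPY-1 and SST-AS-1 also lost it without replicate 1 of E28 (0.0752 and 0.188), and LINC-NPY-1 without replicate 2 of E28 (0.21). LINC-SLC32A1-1, named after the vesicular GABA transporter gene and held by the list of solute carriers, rose from 1.29 and 0.782 CPM to 4.87 and 7.17 CPM (adjusted p = 0.0223), and was called only without replicate 1 of E42 (0.0483) when 1 library was left out, with 0.0885 to 0.208 otherwise.

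Features named after genes of projection neurons were counted next. Of 51 tested features of upper-layer neurons 3 rose and 0 fell, with a median log2 fold change of 1.02. LINC-POU3F3-23, named after a POU-domain gene of upper-layer neurons and of progenitors, had 0.688 and 1.71 CPM at E28 and 19.5 and 17.6 CPM at E42, a log2 fold change of 3.95 (SE 0.76, adjusted p = 0.000732). LINC-POU3F3-22 rose from 1.73 and 2.81 CPM to 7.65 and 9.51 CPM (adjusted p = 0.0167), and LINC-MEF2C-1 from 1.79 and 0.926 CPM to 5.64 and 4.80 CPM (adjusted p = 0.00525). At E42 the mean of LINC-POU3F3-23 was 18.6 CPM in the OSVZ and at most 8.82 in every other layer, whereas LINC-MEF2C-1 was highest in the outer cortical plate, at 11.9 CPM, with 5.22 in the OSVZ. LINC-POU3F3-23 also rose in the ISVZ, by 2.51 (adjusted p = 0.0172), and in the IZ, by 3.04 (adjusted p = 0.00829). Its change in the OSVZ did not differ from these at the threshold (adjusted p = 0.581 and 0.967). LINC-POU3F3-23 held its call without any 1 library (adjusted p of at most 0.0315), LINC-POU3F3-22 lost it without replicate 1 (0.2) or 2 (0.0533) of E28 or replicate 2 of E42 (0.0947), and LINC-MEF2C-1 without replicate 2 of E28 (0.133).

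Of 37 tested features of deep-layer neurons 1 rose and 1 fell, with a median log2 fold change of 0.00. LINC-NEUROD2-1, named after a neuronal differentiation factor gene, had 4.65 and 5.93 CPM at E28 and 0.657 and 1.19 CPM at E42 (log2 fold change −2.50, SE 0.76, adjusted p = 0.0295). LMO3-AS-1 had 0.138 and 0.318 CPM at E28 and 1.47 and 1.94 CPM at E42 (log2 fold change 2.89, SE 0.72, adjusted p = 0.00733). LINC-NEUROD2-1 lost its call whichever library was left out (adjusted p 0.0672 to 0.185), and LMO3-AS-1 lost it without replicate 1 of E28 (0.135).

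Features named after genes of other cell types that a cut of tissue could hold were also counted. Of 114 vascular and immune features 15 were tested, of which 1 rose, with summed levels of 6.24 and 9.06 CPM at E28 and 17.0 and 14.3 CPM at E42 and 84 of the 114 at 0 in all 4 libraries. That feature, LINC-CDH5-2, named after an endothelial cadherin gene, had 0 counts at E28 and 4 and 8 counts at E42. Of 72 features of Cajal-Retzius cells and the choroid plexus 14 were tested, of which 1 rose, with summed levels of 37.3 and 28.7 CPM at E28 and 51.9 and 97.4 CPM at E42 and 57 of the 72 at 0. That feature, LINC-AQP1-1, named after a water channel gene of the choroid plexus, rose from 28.6 and 24.0 CPM to 45.6 and 88.9 CPM (adjusted p = 0.0221) and was widespread, with means at E42 of 176 CPM in the VZ, 67.2 in the OSVZ and 67.1 in the IZ. Both summed levels were thus higher at E42, together with those of the glial and interneuron lists, and their part in those results was not tested. LINC-AQP1-1 was called only without replicate 1 of E42 (0.0139) when 1 library was left out, and otherwise lay between 0.0939 and 0.364.

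Features named after transcription factor genes were called in shares that differed by family. Of 44 tested features of SOX genes 6 rose (13.6%) and 1 fell (2.27%), with a median log2 fold change of 1.38. Over all LINC and antisense features 2.1% rose and 0.581% fell. In the ISVZ 3 SOX features rose and 2 fell, and in the IZ 5 rose and 1 fell, so rises of this family were not confined to the OSVZ. Features of 1 symbol are not independent, and the limit set by the filter on low counts holds here too. The SOX features that rose comprised SOX9-AS-1, the features of SOX10 described with the oligodendrocyte list, and features of SOX1 and SOX11. LINC-SOX1-5 rose from 2 counts in each E28 library to 26 and 44 counts at E42 (adjusted p = 0.0264, lost without any 1 library, 0.0701 to 0.18). LINC-SOX11-22, named after a factor of young neurons, fell from 11.4 and 6.95 CPM to 0.387 and 0.274 CPM, a log2 fold change of −4.80 (SE 1.26, adjusted p = 0.0146). The call on LINC-SOX11-22 held only without replicate 2 of E28 (0.0259) when 1 library was left out, with 0.0616 to 0.126 otherwise. Of 112 tested features of homeobox genes 7 rose (6.25%) and 0 fell, with a median of 0.62. Besides LINC-POU3F3-22, LINC-POU3F3-23, DLX5-AS-1, LINC-ZEB2-1 and NKX2-2-AS-1 these were LINC-IRX6-2, which had 0 counts at E28 and 2.17 and 4.06 CPM at E42, at least 78.4-fold higher (adjusted p = 2.76e-05, at most 0.00227 without 1 library), and LINC-ZEB1-2, which rose from 0.358 and 1.19 CPM to 4.91 and 5.08 CPM (adjusted p = 0.0294, 0.293 without replicate 1 of E28, 0.0894 and 0.0885 without replicates 1 and 2 of E42).

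Of 293 tested features of zinc finger genes 4 rose (1.4%) and 2 fell (0.683%), with a median of 0.36. ZNF677-AS-1 and LINC-ZNF677-1 both rose, the first from 0.248 and 0.347 CPM to 2.09 and 1.62 CPM (adjusted p = 0.00272, 0.06 without replicate 1 of E28) and the second from 0 counts to 19 and 38 counts, at least 20.4-fold higher (adjusted p = 0.0013, at most 0.0289 without 1 library). LINC-ZNF316-2 fell from 23.3 and 17.1 CPM to 8.85 and 9.43 CPM (adjusted p = 0.0131). ZNF496-AS-1 rose from 4.84 and 10.1 CPM to 18.3 and 18.3 CPM (adjusted p = 0.0268). ZBTB38-AS-1 rose from 0.468 and 0.608 CPM to 2.47 and 2.71 CPM (adjusted p = 0.00616). These 3 features lost their calls without replicate 1 of E28 (0.171, 0.361 and 0.0921), and the first and second of them also without replicate 1 (0.0672 and 0.117) or 2 (0.055 and 0.1) of E42.

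Features named after genes of neuronal excitability came from the lists of channels and of neurotransmitter receptors. Of 69 tested features of voltage-gated channels 4 rose (5.8%) and 0 fell, with a median log2 fold change of 1.16. Of 68 tested features of neurotransmitter receptors 5 rose (7.35%) and 0 fell, with a median of 1.52. Over all LINC and antisense features 2.1% rose. In the ISVZ the receptor list had a median of 2.48 with 5 members that rose, and the channel list 1.03 with 1. In the IZ the receptor list had a median of 1.02 with 0 members that rose, and the channel list 0.75 with 2. The medians over all LINC and antisense features were 0.83 in the ISVZ and 0.16 in the IZ. LINC-KCNA4-5, named after a potassium channel gene, had 1 and 0 counts at E28 and 56 and 69 counts at E42, a ratio with a counting interval of 23.6 to 5.34e+03 (adjusted p = 0.000179, at most 0.0119 without 1 library). KCND3-AS-3, antisense to another potassium channel gene, rose from 0.138 and 0.724 CPM to 1.66 and 2.81 CPM (adjusted p = 0.00472). CACNA2D1-AS-5, antisense to the gene of a calcium channel subunit, rose from 0 and 0.203 CPM to 1.66 and 1.12 CPM (adjusted p = 0.0152). GABRA2-AS-1, antisense to the gene of a GABA receptor subunit, rose from 0.248 and 0.0289 CPM to 1.08 and 2.02 CPM (adjusted p = 0.0284). Except for LINC-KCNA4-5 these calls depended on single libraries, with adjusted p of 0.138 for KCND3-AS-3 and 0.193 for CACNA2D1-AS-5 without replicate 1 of E28, 0.265 for GABRA2-AS-1 without replicate 2 of E28, 0.0747 for CACNA2D1-AS-5 without replicate 1 of E42, and 0.0728 for KCND3-AS-3 and 0.154 for GABRA2-AS-1 without replicate 2 of E42.

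Features named after signalling, matrix and adhesion genes were called in small numbers. Of 85 tested features of the Notch, Wnt, BMP, FGF and Hedgehog pathways 2 rose (2.35%) and 0 fell. Of 76 of the extracellular matrix and integrins 2 rose (2.63%) and 0 fell. Of 65 of cadherins 3 rose (4.6%) and 0 fell, and of 92 of synaptic adhesion 2 rose (2.17%) and 2 fell (2.17%). The median log2 fold changes of these lists, in that order, were 0.24, 0.22, 0.20 and 0.00. The matrix features that rose were TNC-AS-2 and ITGB5-AS-3, which the radial glia list also holds. FGF1-AS-1, antisense to a growth factor gene, rose from 0.385 and 0.0579 CPM to 1.51 and 1.69 CPM (adjusted p = 0.0181, 0.234 without replicate 2 of E28, 0.052 and 0.0683 without replicates 1 and 2 of E42). LINC-CDH4-2 rose from 7.48 and 6.43 CPM to 11.6 and 16.9 CPM (adjusted p = 0.0432), was not called without any 1 library (0.0689 to 0.374), and lost its call with other scaling factors. SLITRK3-AS-1, antisense to the gene of a synaptic adhesion protein, rose from 1.68 and 0.955 CPM to 5.76 and 6.02 CPM (log2 fold change 2.16, SE 0.41, adjusted p = 0.000471), and its call held without any 1 library.

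Of 105 tested axon guidance features 0 rose and 3 fell. LINC-EPHA7-1, named after an ephrin receptor gene, had 1.29 and 0.955 CPM at E28 and 0.0773 and 0.0747 CPM at E42 (log2 fold change −3.83, SE 0.86, adjusted p = 0.00296, at most 0.0441 without 1 library). EFNB2-AS-1, antisense to an ephrin gene, fell from 2.92 and 4.51 CPM to 0.503 and 1.39 CPM (adjusted p = 0.0375, called only without replicate 2 of E42 when 1 library was left out, 0.0592 to 0.267 otherwise). The third feature, LINC-PLXNA4-3, had 20 and 21 counts at E28 and 0 counts at E42. Of 193 tested features of solute carriers 5 rose and 1 fell. SLC39A14-AS-1 rose from 0.633 and 1.51 CPM to 4.37 and 4.08 CPM (adjusted p = 0.0106, 0.202 without replicate 1 of E28 and 0.0584 without replicate 1 of E42). LINC-SLC16A7-1, named after a monocarboxylate transporter gene, fell from 2.09 and 6.95 CPM to 0.580 and 0.323 CPM (log2 fold change −3.35, SE 0.63, adjusted p = 0.000461, at most 0.0244 without 1 library).

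Among the largest falls, 2 patterns over layers could be seen from the group means. LINC-VAMP3-1 had 127 and 126 CPM in the OSVZ at E28 and 0.155 and 0.0498 CPM at E42, a log2 fold change of −10.36 (SE 0.70, adjusted p = 1.90e-08). Its mean was between 65.2 and 243 CPM in the 6 layers of E28. It was at most 0.0889 CPM in the groups of E37 and E42 that were read, other than the OSVZ of E42, which had 0.102. The E37 library of the undivided cortical plate was not among the groups read. LINC-SUCLG1-21, CATSPER1-AS-1, IGHV4-28-AS-1 and CLEC4D-AS-1 followed the same course, with OSVZ means at E28 of 7.24, 4.48, 3.50 and 2.92 CPM. Their means were at most 0.124 CPM in each of the groups of E37 and E42 that were read. These falls were thus seen in every layer compared, not in the OSVZ alone. CATSPER1-AS-1, IGHV4-28-AS-1 and CLEC4D-AS-1 had 0 counts in both OSVZ libraries of E42 and were at least 98.1-fold, 76.7-fold and 64.3-fold lower, with adjusted p of 0.000196, 0.000173 and 0.000173. The calls on these 5 features held without any 1 library, but with all 36 libraries, the duplicated VZ library included, IGHV4-28-AS-1 (0.113) and LINC-SUCLG1-21 (0.0585) were not called.

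LINC-AJAP1-2, LINC-AJAP1-5 and LINC-AJAP1-6, named after the gene of an adherens junction protein, showed the other pattern. LINC-AJAP1-2 had 3.77 and 3.73 CPM in the OSVZ at E28 and 0 counts in both libraries at E42, at least 82.6-fold lower (adjusted p = 0.00037, at most 0.014 without 1 library). LINC-AJAP1-5 fell from 5.20 and 1.97 CPM to 0 and 0.0249 CPM (adjusted p = 0.0173), and LINC-AJAP1-6 from 3.88 and 0.955 CPM to 0 and 0.0249 CPM (adjusted p = 0.00193, at most 0.036 without 1 library). At E28 all 3 had their highest mean in the OSVZ, and at E42 they had 0 in the VZ but 1.70, 0.944 and 0.427 CPM in the outer cortical plate. Their log2 fold changes were −2.6, −1.4 and −3.7 in the ISVZ and −2.5, −3.3 and −3.4 in the IZ, and none of these was called. The differences from the OSVZ change were not called either (adjusted p 0.12 to 0.68 for the ISVZ and 0.2 to 0.79 for the IZ). LINC-AJAP1-5 lost its call without replicate 1 of E28 (0.0702), replicate 1 of E42 (0.133) or replicate 2 of E42 (0.109).

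Further falls and rises were as follows, and the features that rose had few or 0 counts at E28. NECTIN1-AS-2, antisense to the gene of a cell adhesion protein, fell from 8.36 and 7.58 CPM to 0.541 and 0.523 CPM (log2 fold change −3.90, SE 0.52, adjusted p = 4.40e-06). ADCYAP1-AS-2, antisense to the gene of the neuropeptide PACAP, fell from 9.79 and 11.7 CPM to 0.928 and 0.597 CPM (log2 fold change −3.82, SE 0.70, adjusted p = 0.00034). The replicates of each stage agreed closely in both, and both calls held without any 1 library. PMP22-AS-1, antisense to the gene of a membrane protein of peripheral myelin, had 0 counts at E28 and 1.89 and 2.74 CPM at E42, at least 56.9-fold higher (adjusted p = 9.16e-05). GATM-AS-1, antisense to the gene of an enzyme of creatine synthesis, rose from 0.11 and 0.261 CPM to 2.51 and 3.91 CPM (log2 fold change 4.10, SE 0.83, adjusted p = 0.00101). LINC-RALGDS-3 had 1 and 0 counts at E28 and 8.16 and 9.83 CPM at E42, a ratio of 650 with a counting interval of 116 to 2.57e+04 (adjusted p = 0.000128), and LINC-NEBL-1 had 1 and 0 counts and then 2.59 and 2.34 CPM, a ratio of 173 with an interval of 30.6 to 6.87e+03 (adjusted p = 4.22e-06). CA8-AS-1 had 2 and 0 counts at E28 and 2.94 and 3.18 CPM at E42, a ratio of 109 with an interval of 29.9 to 910 (adjusted p = 0.00023). These 5 rises held without any 1 library. LINC-LORF2-9 and LINC-ENV-46 also rose, from 0 counts to 3.13 and 4.03 CPM and from 0 and 0.116 CPM to 2.47 and 3.78 CPM, but they are named after repeated retroelement sequences, so their reads may be shared with other copies. LINC-ENV-46 lost its call without replicate 1 of E28 (0.179) or replicate 2 of E42 (0.0713).

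**Figure D3:**
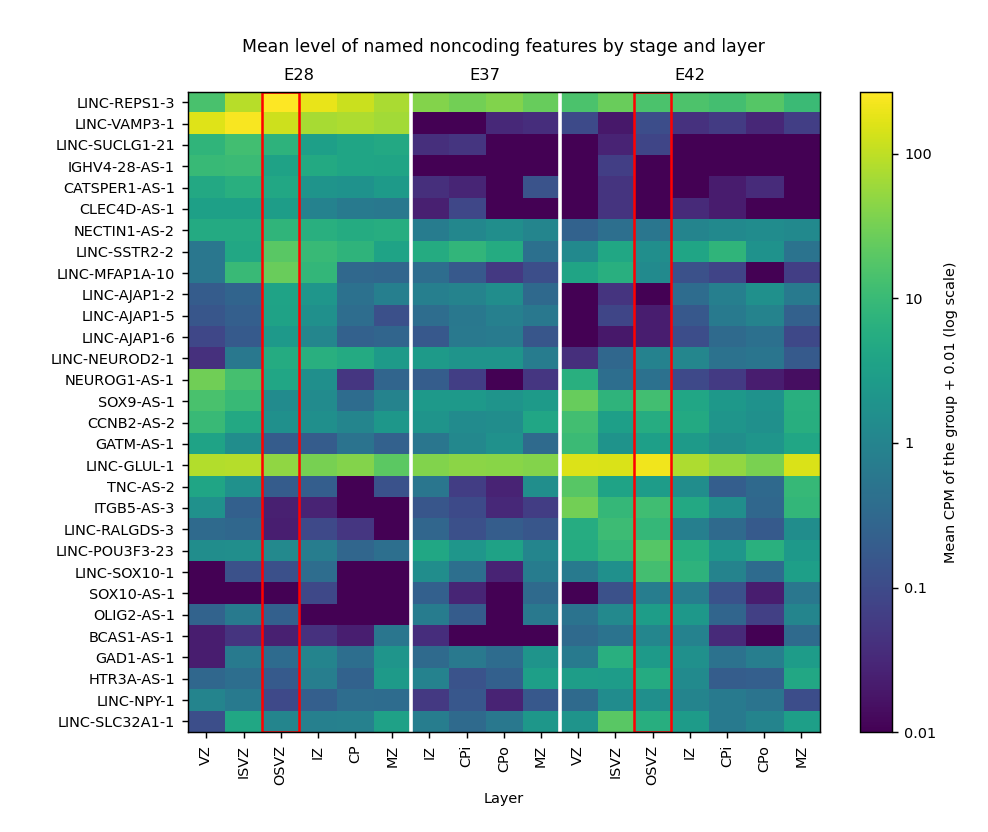
Mean CPM of 30 named LINC and antisense features in the layers of E28, E37 and E42, on a log colour scale after adding 0.01, with the OSVZ columns framed in red. CPi and CPo are the inner and outer cortical plate (CP), and the E37 library labelled CP is not shown. LINC-VAMP3-1 and the 4 features under it are bright over all E28 layers and dark later, the LINC-AJAP1 features are brightest in the OSVZ of E28, and LINC-SOX10-1 is brightest in the OSVZ of E42.

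At E42 LINC-SOX10-1 had a mean of 12.5 CPM in the OSVZ, 7.23 in the IZ, 3.12 in the MZ and at most 1.64 in the other layers, so the OSVZ stood first in that order. The features of interneuron genes stood in another order, with GAD1-AS-1 at 6.18 CPM in the ISVZ, 2.77 in the MZ and 2.63 in the OSVZ, DLX5-AS-1 at 11.3 in the ISVZ and 3.94 in the OSVZ, and LINC-SLC32A1-1 at 20.1 in the ISVZ and 6.02 in the OSVZ. LINC-GLUL-1 had 215 CPM in the OSVZ, 158 in the VZ, 154 in the ISVZ and 154 in the MZ. These orders are descriptions over groups of 1 or 2 libraries and were not tested.

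The called noncoding features were spread over many genes. They carried 266 symbols, of which 16 had at least 2 features that rose, 6 had at least 2 that fell, and 2 had features in both directions. AJAP1 was the only symbol with 3 features in 1 direction, and 3 of its 3 tested features fell. Both tested features of ZNF677 rose, and 2 of 3 tested rose for BCAR3, CSPG5, KCNJ3, LGI1 and SOX10. Most of these calls depended on single libraries. BCAR3-AS-6 was not called without any 1 library (adjusted p 0.0757 to 0.214), and BCAR3-AS-7 was not called without replicate 1 (0.177) or 2 (0.0621) of E28 or replicate 1 of E42 (0.057). LGI1-AS-1 was not called without replicate 2 of E28 (0.327) or of E42 (0.66) and lay at 0.0503 to 0.112 in 4 other settings, and LGI1-AS-2 was not called without replicate 1 (0.166) or 2 (0.0678) of E28 or replicate 1 of E42 (0.12). CSPG5 encodes a chondroitin sulfate proteoglycan of neural cells, and its features CSPG5-AS-2 and CSPG5-AS-3 each had 1 count over the E28 libraries and 56 and 54 counts over those of E42 (adjusted p = 0.0227 and 0.00891). Both calls were lost without replicate 1 of E28 (0.0969 and 0.129) or replicate 1 of E42 (0.107 and 0.0528), and the first also without replicate 2 of E28 (0.185). For KCNJ3, a potassium channel gene, LINC-KCNJ3-1 rose from 0.660 and 1.45 CPM to 4.10 and 5.20 CPM (adjusted p = 0.00886, 0.172 without replicate 1 of E28 and 0.0601 without replicate 2 of E42), and LINC-KCNJ3-2 was called only without replicate 1 of E42 (0.0481) when 1 library was left out, with 0.0688 to 0.123 otherwise. Among the symbols with 2 features that fell, RPL5 and HIS-71 name genes with many near-identical copies, so the counts of their features are uncertain. Features of 1 symbol lie near each other and are not independent.

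The same stages were compared in the layers on either side, which share no library with the OSVZ comparison. Layers of a stage carry the same replicate numbers and may come from the same fetuses, whereas the fit treated their libraries as independent, and the effect of this on the shared calls and on the tests of a difference was not tested. Of the 1896 features that rose in the OSVZ, 952 (50.2%) also rose in the IZ, where they were 56.5% of the 1685 that rose (6.27% of all tested), and 735 (38.8%) also rose in the ISVZ, where they were 38.8% of the 1892 that rose (7.04%). The median log2 fold change of these 1896 features was 1.32 in the IZ and 1.07 in the ISVZ, and since they were chosen on their change in the OSVZ, their higher median there is no comparison of the layers. Of the 1076 that fell in the OSVZ, 471 (43.8%) also fell in the IZ, where 925 fell (3.44%), and 490 (45.5%) in the ISVZ, where 2019 fell (7.52%). In all 3 layers 442 features rose and 271 fell.

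The difference between the changes was tested directly. Between the OSVZ and the ISVZ 1066 features differed in their change (3.97% of those tested), 624 of them toward a higher value in the OSVZ, and between the OSVZ and the IZ 128 differed (0.477%), 31 of them toward a higher value in the OSVZ. Only 40 LINC and antisense features differed from the ISVZ (0.369%) and 7 from the IZ (0.0646%).

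Some features of the lineage and abundance lists were among those 40. SOX9-AS-1 rose in the OSVZ by a log2 fold change of 3.16 and changed by −0.35 in the ISVZ, where its level was already 9.56 CPM at E28, and the difference of 3.52 (SE 0.77) had an adjusted p of 0.00632. CCNB2-AS-2 likewise changed by −0.58 in the ISVZ, a difference of 2.35 with an adjusted p of 0.0333. LINC-GLUL-1 rose in the ISVZ too, by 0.83, and the rise in the OSVZ was larger by 1.28 (SE 0.27, adjusted p = 0.00389). In these features the OSVZ started below the ISVZ at E28 and ended above it at E42, with means of 49.6 and 86.4 CPM at E28 and 215 and 154 CPM at E42 for LINC-GLUL-1. LINC-REPS1-3 fell more in the OSVZ than in the ISVZ, by −2.36 (SE 0.38, adjusted p = 0.00028), from means of 270 and 90.6 CPM to 15.0 and 25.8 CPM. LINC-SLC16A7-1 fell in the OSVZ and changed by 0.82 in the ISVZ, a difference of −4.17 with an adjusted p of 0.00297. GATM-AS-1 differed by 3.76 (adjusted p = 0.0402), and MT-ND1-AS-1, which changed by −1.69 in the ISVZ, by 5.03 (adjusted p = 0.0253).

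The oligodendrocyte and interneuron features did not pass the test of the difference. LINC-SOX10-1 rose in the ISVZ by 3.79 (adjusted p = 0.00226) and in the IZ by 4.23 (adjusted p = 0.000573), and its larger rise in the OSVZ differed from these by 2.96 (SE 1.20, adjusted p = 0.213) and 2.52 (SE 1.07, adjusted p = 0.549). GAD1-AS-1 rose in the ISVZ by 3.21 (adjusted p = 0.00218), with a difference of −0.30, and changed by 0.75 in the IZ, with a difference of 2.15 (adjusted p = 0.594). Over the oligodendrocyte list, whose median was 4.50 in the OSVZ, the median log2 fold change was 2.60 in the ISVZ and 2.66 in the IZ, and 1 and 2 of its members rose there. Over the interneuron list the median was 2.24 in the OSVZ, 1.58 in the ISVZ and 0.39 in the IZ, and 4 and 0 members rose in the latter layers. Over all LINC and antisense features 2.68% rose in the ISVZ and 1.26% in the IZ. LINC-SSTR2-2 changed by −0.07 in the ISVZ and −1.28 in the IZ, and the differences from the fall in the OSVZ had adjusted p of 0.0828 and 0.639. A p above the threshold in so few libraries does not show that the layers changed alike.

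**Figure D4:**
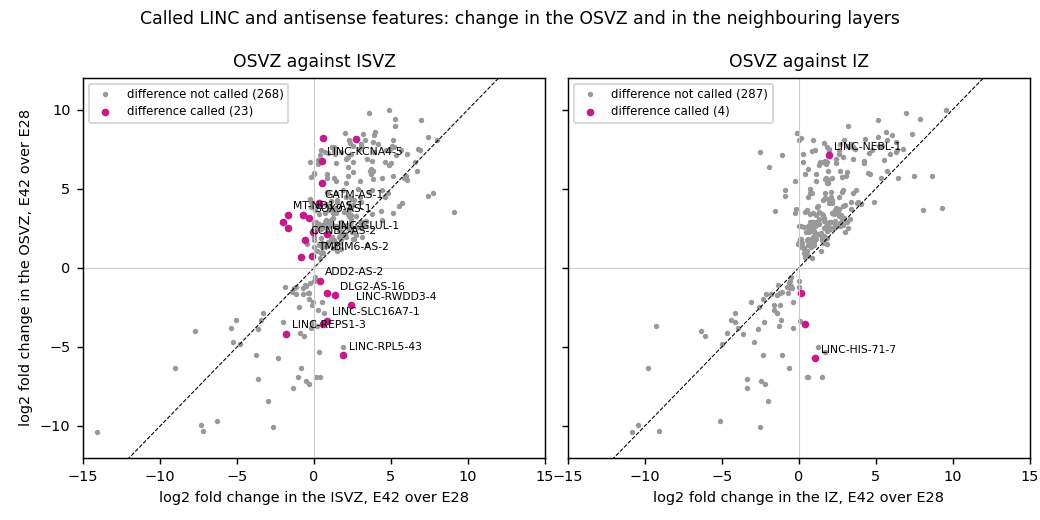
Log2 fold change from E28 to E42 of the 291 called LINC and antisense features in the OSVZ (vertical axis) against the change of the same features in the ISVZ (left) and the IZ (right), with a dashed line at equal change. Magenta points, 23 against the ISVZ and 4 against the IZ, passed the test of the difference between the layers at an adjusted p under 0.05, and most points lie farther from 0 on the vertical axis, on which the features were selected.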

How the data were processed

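RNA-seq was made from laser-microdissected layers of fetal tree shrew cortex. The authors trimmed adapters, aligned the reads with HISAT and counted them per feature with HTSeq, and the deposited files hold raw read counts per feature, with no normalization. The summary lines that HTSeq adds were removed. TMM scaling, a filter on low counts (filterByExpr, minimum count 10) and edgeR 4.0.16 quasi-likelihood tests in R 4.3.3 were applied to 35 libraries in 18 groups, leaving 26858 of 76871 features. A VZ library of E42 was left out because its counts are identical to those of a VZ library of E28. P-values were adjusted by the Benjamini-Hochberg method over all features. Alternatives included DESeq2 1.42.0, and the scripts were tested on simulated data.

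Depth was 25143369 to 38457348 counts in the OSVZ libraries, which limits the rare features. Named by rule were the called features of largest change whose stages did not overlap (2 TSDBGID features a direction at a mean of 5 CPM or more, 6 LINC and 6 antisense features at 1 CPM or more), up to 3 called members of each list and direction at 0.5 CPM or more, up to 6 symbols a direction with the most called features, and the 3 LINC or antisense features at each end of each difference between layers. The members and lists were chosen with earlier results of these data known.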

Additional observations from a re-analysis of the deposited data

Results flagged for a closer look

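The change from E28 to E42 was tested for a difference between the OSVZ and its neighbours. It differed from the change in the ISVZ for 1066 features, among them LINC-KCNA4-5, whose log2 fold change was higher in the OSVZ by 6.28 (adjusted p = 0.00834, edgeR), and PFKP-AS-1, whose difference was −5.03 (adjusted p = 0.000753) because it rose in the ISVZ by 4.54 and was not called in the OSVZ. It differed from the change in the IZ for 128 features. LINC-HINT1-9 differed by −7.14 and LINC-HIS-71-7 by −6.79 (edgeR adjusted p = 0.0089 for both), and LINC-NEBL-1 by 5.18 (adjusted p = 0.0343).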

How the results depend on the processing

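The 2972 calls became 2916 with no filter on low counts, 4157 with DESeq2, 3012 with DESeq2's size factors, 2434 with only the libraries compared, 2084 with all 36 libraries, 2137 with a log2 fold change beyond 1, 3196 without the 20 most abundant features in the library size, and 3140 in thinned libraries, which were run for the OSVZ comparison only. Without 1 OSVZ library they were 1619 to 2192. The deviations of same-numbered OSVZ libraries from their stage means had a correlation of −0.00502 over the features. Whether the numbers mark a batch was not tested, and a fit with the replicate number as a block gave 3775 calls.

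DESeq2 gave 1570 TSDBGID features that fell (1013 in the reported fit), 61 LINC that fell (37), 205 antisense that rose (121), 49 antisense that fell (26), 1907 differences from the ISVZ (1066) and 406 from the IZ (128). With all 36 libraries these were 629 TSDBGID, 23 LINC and 17 antisense that fell, and 539 and 44 differences. A log2 fold change beyond 1 left 389 TSDBGID features that fell. Differences from the IZ were 386 with no filter and 217 with the replicate block.

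Without 1 library the calls were 836 to 1190 TSDBGID that rose, 440 to 877 that fell, 28 to 59 LINC that rose, 21 to 30 that fell, 40 to 78 antisense that rose and 13 to 22 that fell, with 511 to 1114 differences from the ISVZ and 35 to 131 from the IZ. The lowest counts of rising LINC and antisense features, 28 and 40, came without replicate 1 of E28. Of 98 named features that were called, 34 kept their call without any 1 library and 68 under every other alternative, and no direction reversed. The cause of these changes was not tested. Depth limits features with few counts.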
